A study of Mus musculus with 44 samples.

Results

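The acute-phase genes Saa1, Saa3 and Lcn2 were followed across 8 deposited lists of transcription factor peaks, 1 list for each factor (NF-kB or IRF3), genotype and treatment. They are 3 of 21887 protein-coding genes in the annotation. Every listed peak within 100 kb of any of the 3 gene spans was taken, which gave 3 of the 15489 peaks of the 8 lists together. These genes were chosen because peaks near them had already been seen in the NF-kB list of knockout cells with LPS. Where their peaks occur is therefore a description without a test.

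The cells were macrophages grown from the bone marrow of C57BL/6 mice with 30 ng/ml M-CSF and collected at day 8 to 10. The groups were Dnmt3a KO with lipopolysaccharide (LPS, 10 ng/ml for 6 hours), Dnmt3a KO untreated, WT with LPS and WT untreated. Dnmt3a is a de novo DNA methyltransferase, and the sources used here do not say how the gene was deleted or in which cells. NF-kB chromatin immunoprecipitation covered 3 samples in each group, and IRF3 covered 3 in KO with LPS, 2 in untreated KO, 2 in WT with LPS and 3 in untreated WT. Each list merges the samples of its group, so no value below has a spread between replicates and no difference between lists could be tested. The labels name no NF-kB subunit. Coordinates are in mm10.

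Serum amyloid A proteins are small apolipoproteins that rise steeply in blood during infection and injury. In mice, Saa1 and Saa2 are made mainly by the liver, Saa3 is made by macrophages and other tissues outside the liver, and Saa4 is expressed constitutively. Lcn2 encodes lipocalin 2, a secreted protein that binds bacterial siderophores and so withholds iron from bacteria, and macrophages and neutrophils make it after Toll-like receptor stimulation. NF-kB and members of the C/EBP family are well-known activators of these promoters, whereas IRF3 is best known for driving type I interferon genes.

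All 3 genes had a peak in the NF-kB list of KO cells with LPS. None of the 3 had one within 100 kb in any of the other 7 lists. The KO LPS list put Saa1 at rank 177, Lcn2 at rank 301 and Saa3 at rank 1005 of 2376 peaks, ranked by the authors' p-value. Over all protein-coding genes, 15.2% had a peak of this list within 100 kb and 3.97% within 10 kb, and 0.635% had one within 10 kb in this list and in no other. The first peaks of the same list beyond the 100 kb limit lay 467 kb from the Saa cluster and 1455 kb from Lcn2. Since the genes were chosen on this contrast, nothing is read from the count of 3 against those shares.

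**Figure D1:**
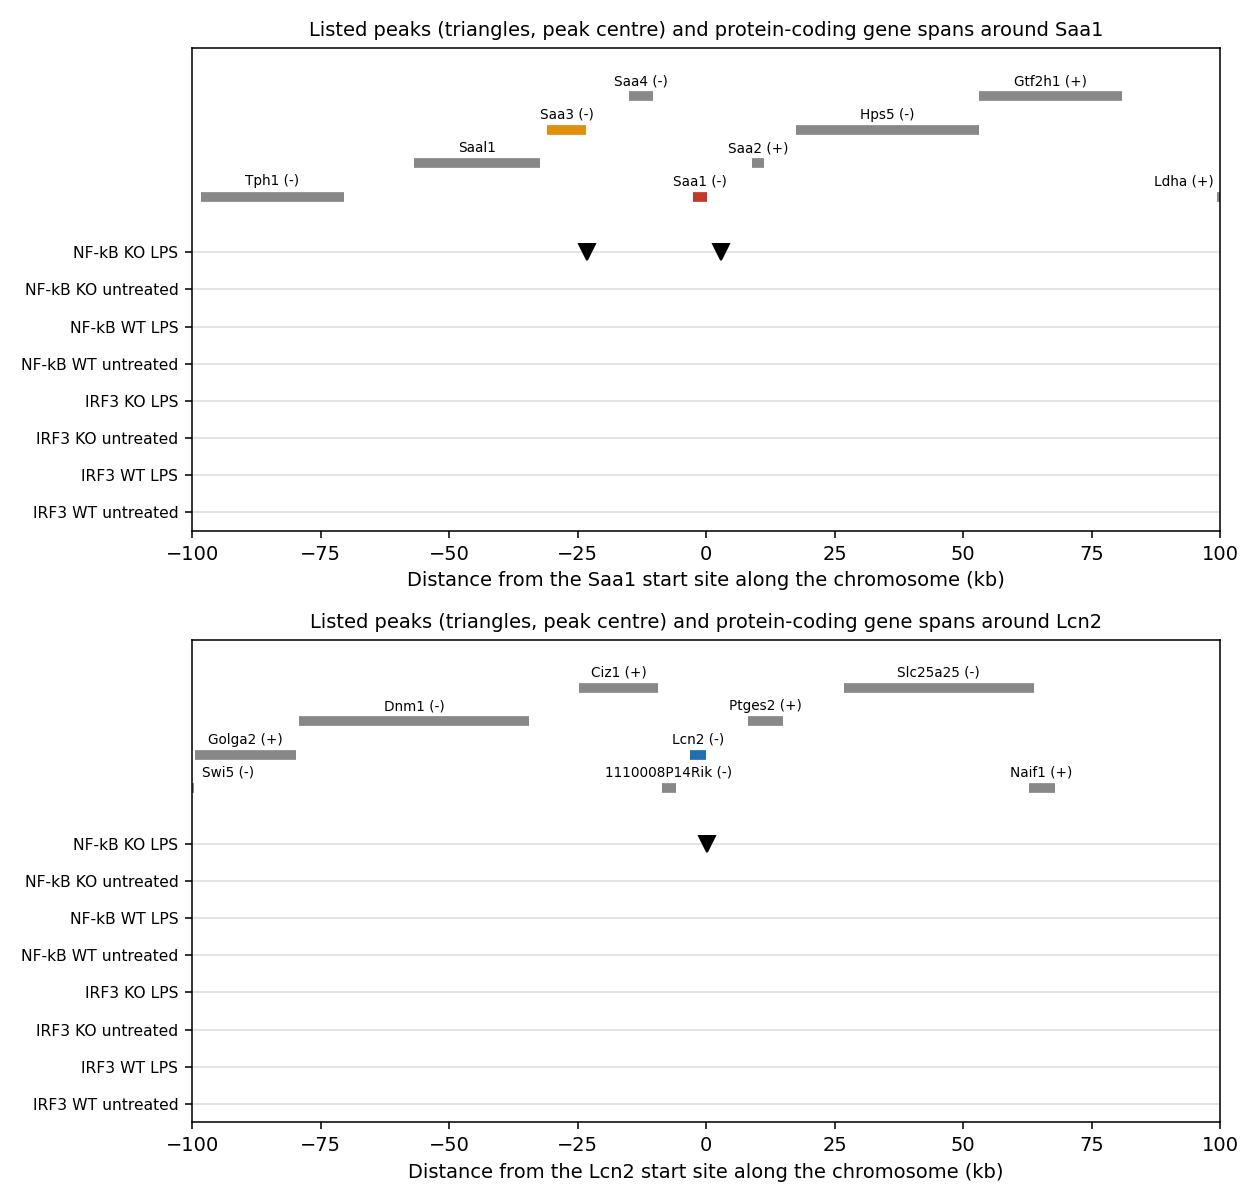
Map of the listed peaks around Saa1 with its neighbours (top) and around Lcn2 (bottom). The horizontal axis gives distance from the gene's start site in kb along the chromosome, bars are protein-coding gene spans with their strand where known, and each row is 1 peak list. Triangles mark peak centres and appear only in the row of NF-kB in KO with LPS, 2 in the Saa cluster and 1 at Lcn2.

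The Lcn2 peak lay over the start of the gene. Lcn2 (gene ID 16819) spans chr2:32384637-32387739 on the minus strand, with its annotated start site at the upper end. The NF-kB peak of KO cells with LPS spanned 347 bp, chr2:32387708-32388054, and ran from 31 bp inside the transcript to 315 bp upstream of the start site. Its deposited signal value was 16.7, its p-value 0.000594 and its q-value 0.0830, which is above 0.05. The 250 bases before the start site lie wholly inside the peak, and are shown here from the RefSeq promoter table (build GRCm38.p6, chr2:32387740-32387989, minus strand), 5′ to 3′, because they are the sequence under this peak next to the gene.
Lcn2: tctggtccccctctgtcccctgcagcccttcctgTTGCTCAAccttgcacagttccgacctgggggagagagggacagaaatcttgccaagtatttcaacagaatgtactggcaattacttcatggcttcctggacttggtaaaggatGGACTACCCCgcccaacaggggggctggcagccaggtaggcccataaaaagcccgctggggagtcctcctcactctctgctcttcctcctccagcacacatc
Capitals mark matches to an NF-kB motif (GGG, any 5 bases, CC) or a C/EBP motif (TTNNGNAA), searched on both strands. The NF-kB match, GGACTACCCC on the gene's strand, lies 102 to 93 bases before the start site and reads as the motif on the opposite strand. The C/EBP match, TTGCTCAA, lies 216 to 209 bases before it. Neither motif is rare, as 45.8% of the 32817 annotated start sites have the NF-kB motif in the same 250 bases and 36.8% have the C/EBP motif.

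A peak over a start site was uncommon in every list. In the NF-kB list of KO with LPS, 18 of 2376 peaks covered an annotated start site (0.758%, exact 95% interval 0.450 to 1.20%), against 11 of 3065 in untreated KO (0.359%, 0.179 to 0.641%). In the WT lists, LPS-treated cells had 15 of 2494 (0.601%, 0.337 to 0.990%) and untreated cells 6 of 1462 (0.410%, 0.151 to 0.891%). Of the 18 peaks, 9 were under 500 bp, and 6 of these 9 were also listed in WT with LPS. Those 6 included the start sites of Tnfaip3, the gene of the NF-kB inhibitor A20, and Irak3, an inhibitor of Toll-like receptor signalling. The rest of the 6 lay at Gm14321 and Gm32287, which share the best-ranked peak of the 9 (rank 38), and at Lrmda, Gm16174 and Znrf1. The 3 that WT with LPS did not list lay at Lcn2, at Sp110 and at LOC115488002. Genes at these 9 peaks are named here after their values were seen. The 18 peaks covered 21 start sites, of which 14 carried the NF-kB motif (66.7%, 43.0 to 85.4%).

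The Saa1 peak was the narrowest and best ranked of the 3. Saa1 (gene ID 20208) spans chr7:46740497-46743181 on the minus strand, with its start site at 46742980. The peak spanned 158 bp, chr7:46745845-46746002, and lay 2865 to 3022 bp upstream of the start site. It had a signal value of 19.1, a p-value of 0.000133 and a q-value of 0.0343, the only q-value of the 3 under 0.05. The position lies between 2 genes that point away from each other, Saa1 on the minus strand and Saa2 on the plus strand, whose start sites are 8853 bp apart. The Saa2 start site was 5831 bp from the peak, so the peak also counted for Saa2 at a limit of 10 kb. The symbols Saa1 and Saa2 have each served as a synonym of the other in the annotation, and the names here follow the current table.

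The Saa3 peak was wider and ranked lower. Saa3 (gene ID 20210) spans chr7:46711998-46719615 on the minus strand, and the peak spanned 527 bp, chr7:46719528-46720054. The peak overlapped the outer 88 bp of the span. However, the span reaches 3939 bp beyond the start site given in the promoter table (46715676), and the peak lay 3852 to 4378 bp upstream of that start site. By distance to this start site the Saa3 peak was thus farther out than the Saa1 peak. Its signal value was 11.8, its p-value 0.0141 and its q-value 0.456. The Saa1 and Saa3 peaks were separated by 25790 bp without a listed peak, which hold Saa4 and Saa1.

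Neither Saa peak reached the 250 bases before its gene's start site, and those sequences are shown only to set them beside that of Lcn2. They are from RefSeq (GRCm38.p6, minus strand, chr7:46742981-46743230 for Saa1 and chr7:46715677-46715926 for Saa3), with the same capitals.
Saa1: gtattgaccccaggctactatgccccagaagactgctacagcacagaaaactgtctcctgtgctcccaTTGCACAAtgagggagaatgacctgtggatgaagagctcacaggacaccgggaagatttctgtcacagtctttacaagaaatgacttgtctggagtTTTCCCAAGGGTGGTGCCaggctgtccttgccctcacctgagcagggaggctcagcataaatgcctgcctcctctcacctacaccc
Saa3: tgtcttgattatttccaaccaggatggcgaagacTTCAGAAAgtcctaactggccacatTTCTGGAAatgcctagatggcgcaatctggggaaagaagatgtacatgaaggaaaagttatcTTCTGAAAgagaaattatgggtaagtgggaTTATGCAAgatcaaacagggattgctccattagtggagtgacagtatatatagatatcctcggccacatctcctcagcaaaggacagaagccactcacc
Saa1 has 1 NF-kB match, GGGTGGTGCC, 78 to 69 bases before the start site, directly next to a C/EBP match, TTTCCCAA, and a further C/EBP match, TTGCACAA, 182 to 175 bases before it. Saa3 has 4 C/EBP matches and no match to the NF-kB letters in this window. An interferon response motif (GAAA, any 2 bases, GAAA), which 2.97% of start sites carry, occurs 1 time before Saa3 and not before Saa1 or Lcn2, and TATAAA, carried by 12.4%, is in none of the 3 windows. The 250 bases of Saa1 were 94.8% identical to those of Saa2, whereas Saa1 and Saa3 shared 48.5% and Saa1 and Lcn2 52.2%. Reads from near-identical copies such as Saa1 and Saa2 can be assigned to either, and the sources used here do not say how such reads were handled. The Saa1 peak itself lies outside the compared bases, and its sequence was not used here.

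Within their list, all 3 peaks were narrower than the median peak, and those of Saa1 and Lcn2 were under 500 bp. Only 9.09% of peaks in the NF-kB list of KO with LPS were as narrow as the Saa1 peak or narrower, against 21.7% for Lcn2 and 30.7% for Saa3, and the median peak was 943.5 bp wide. The Saa1 peak falls within the 100 to 300 bp to which the chromatin was sheared, and the other 2 exceed it. When the same list was ranked by signal value, the places were 226 for Saa1, 419 for Lcn2 and 1311 for Saa3, so the order of the 3 genes was the same.

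**Figure D2:**
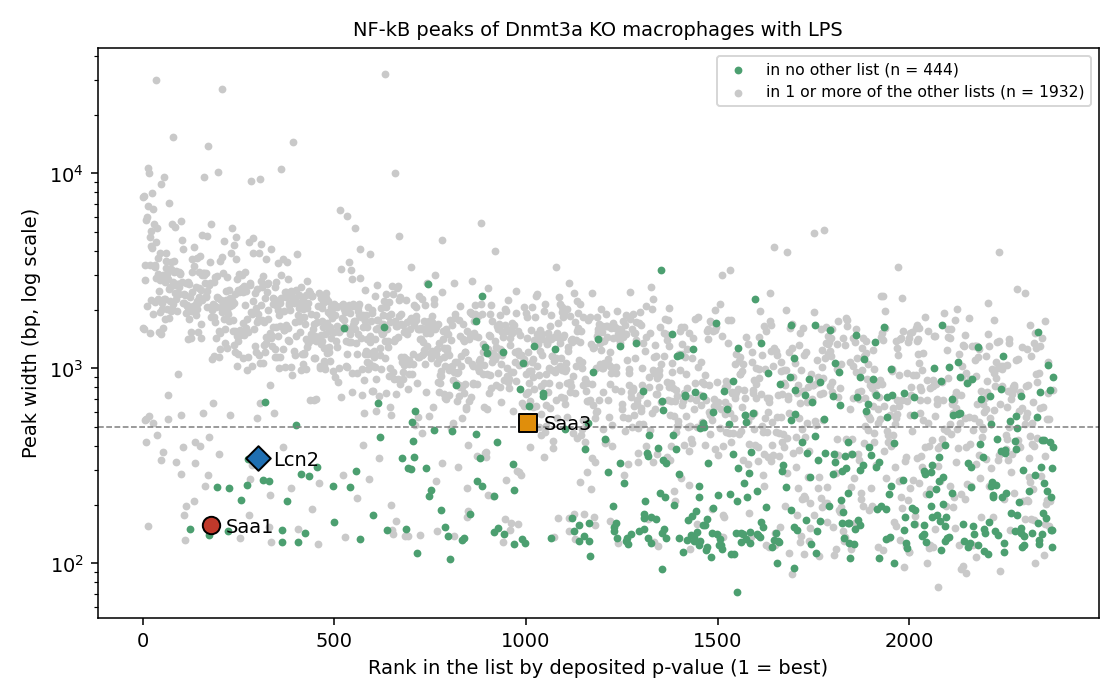
Width in bp (log scale) against rank by deposited p-value for the 2376 NF-kB peaks of KO cells with LPS. Green points are the 444 peaks listed in no other list, grey points the rest, the dashed line marks 500 bp, and the 3 labelled symbols are the peaks of Saa1 (158 bp, rank 177), Lcn2 (347 bp, rank 301) and Saa3 (527 bp, rank 1005).

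High-ranking peaks of this list were seldom absent from all others. Of the 2376 peaks, 444 overlapped no peak of the other 7 lists (18.7%, 17.1 to 20.3%), and Saa1 was the 3rd, Lcn2 the 10th and Saa3 the 79th of them by rank. Among the 177 peaks ranked at or better than the Saa1 peak, 171 were also listed in WT with LPS (96.6%, 92.8 to 98.8%). For the 301 peaks up to Lcn2 the number was 285 (94.7%, 91.5 to 96.9%), and for the 1005 up to Saa3 it was 823 (81.9%, 79.4 to 84.2%). Width moved with this as well. Of the 698 peaks under 500 bp, 218 were also listed in WT with LPS (31.2%, 27.8 to 34.8%) and 327 were in no other list (46.8%, 43.1 to 50.6%). Among peaks that were both under 500 bp and ranked at or better than Lcn2, 22 of 34 were in WT with LPS (64.7%, 46.5 to 80.2%) and 10 of 34 were in no other list (29.4%, 15.1 to 47.5%). For peaks under 500 bp ranked at or better than Saa1, 16 of 21 were in WT with LPS (76.2%, 52.8 to 91.8%). Of the same 21, 3 were in no other list (14.3%, 3.05 to 36.3%). Each class cut at a member's rank contains that member's peak and any better-ranked member. Those peaks are in no other list by the choice of the genes. Intervals cover counting error only.

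**Figure D3:**
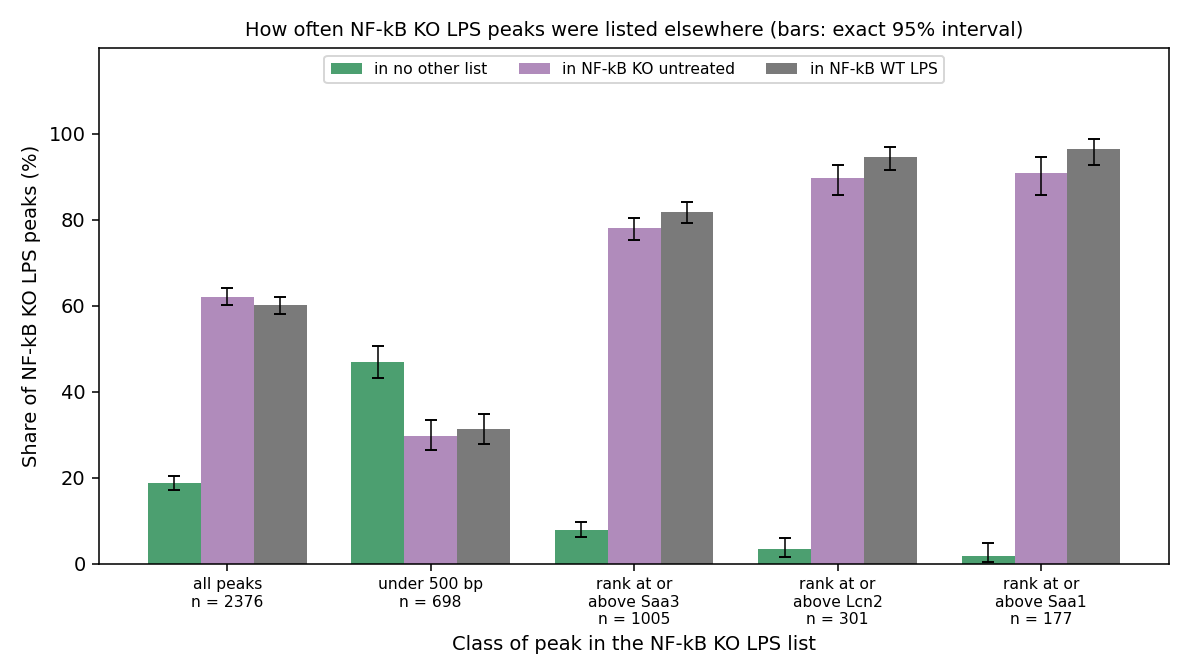
Share of peaks in the NF-kB list of KO with LPS that were in no other list (green), in NF-kB untreated KO (purple) or in NF-kB WT with LPS (grey), for 5 classes of peak with the number of peaks under each. Error bars are exact 95% binomial intervals. The share in no other list is 18.7% for all peaks and 1.69% for the 177 peaks ranked at or better than Saa1, the Saa1 peak among them.

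In the other lists the surroundings of the genes were empty of peaks over long distances. For Saa1 the nearest peak lay 478 kb away in untreated KO and 478.2 kb away in WT with LPS for NF-kB, and 1561 kb away in untreated WT. Those first 2 peaks are at the same place, 2290 bp wide in untreated KO and 1967 bp wide in WT with LPS, and the untreated KO IRF3 list also held it. The other IRF3 lists came no closer than 1561 kb in KO with LPS, 3582 kb in WT with LPS and 3583 kb in untreated WT. Saa3 shares this neighbourhood, with nearest peaks 501.5 to 3606 kb away. For Lcn2 the nearest NF-kB peak was 1546 kb away in untreated KO, 1459 kb in WT with LPS and 2188 kb in untreated WT. The nearest IRF3 peak to Lcn2 was 4721 kb away in KO with LPS, 1134 kb in untreated KO, 4711 kb in WT with LPS and 8444 kb in untreated WT.

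How far such distances stood from those of other genes varied between lists. The median gene lay 402.3 kb from an NF-kB peak in untreated KO and 502.1 kb in WT with LPS, so Saa1 and Saa3 stood near the middle of all genes there. In the untreated WT NF-kB list, 30.1% of all genes lay at the distance of Saa1 or farther. For IRF3 that share was 25.6% in KO with LPS, 63.7% in untreated KO, 11.3% in WT with LPS and 16.9% in untreated WT, and Saa3 was within 2 percentage points of Saa1 in each of these lists. Lcn2 had shares of 12.3% in untreated KO, 17.1% in WT with LPS and 19.7% in untreated WT for NF-kB. For IRF3 its shares were 2.71% in KO with LPS, 36.7% in untreated KO, 5.77% in WT with LPS and 3.89% in untreated WT. Within 100 kb, 18.4% of genes had an NF-kB peak in untreated KO, 15.5% in WT with LPS and 9.62% in untreated WT. For IRF3 the shares were 11.0% in KO with LPS, 10.5% in untreated KO, 8.51% in WT with LPS and 6.47% in untreated WT. A gene without a peak within 100 kb was thus the usual case in every list. The number of genes with a peak within 10 kb in KO with LPS and not in WT with LPS was close to the reverse for NF-kB, at 1.30% and 1.43% of genes.

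**Figure D4:**
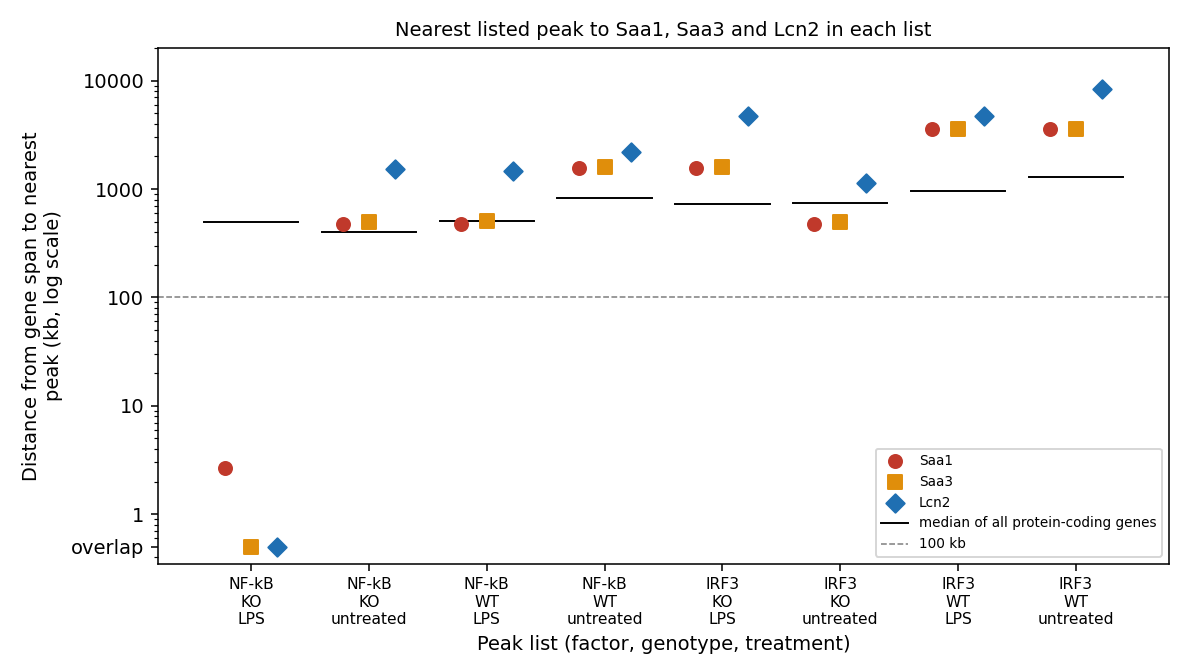
Distance in kb (log scale) from the spans of Saa1, Saa3 and Lcn2 to the nearest peak of each list, with lists along the horizontal axis. Black bars give the median over all protein-coding genes, the dashed line marks 100 kb, and "overlap" stands for a peak on the gene span. All 3 genes lie under 3 kb in the NF-kB list of KO with LPS and above 477 kb in the other lists.

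Well-known NF-kB targets listed in both genotypes with LPS give a scale for the ranks. Tnfaip3 had its best peak at rank 53 in KO and 389 in WT, Sod2, the mitochondrial superoxide dismutase gene, at 170 in KO and 284 in WT, and Bcl3, a nuclear IkB family gene, at 767 in KO and 1998 in WT. Saa1 and Lcn2 therefore ranked between Sod2 and Bcl3 in KO, and Saa3 ranked below Bcl3. Lists of different length were compared, and how each was merged is not stated, so a better rank in 1 list does not show a change in binding.

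Within the serum amyloid A family, all 4 genes lay within 10 kb of an NF-kB peak in KO with LPS. They did so through only 2 peaks, since Saa2 shares the Saa1 peak and Saa4 the Saa3 peak (7938 bp away). The Lcn2 peak likewise lay within 10 kb of 1110008P14Rik, Ptges2 and Ciz1. A peak was not linked to a gene by any measurement here.

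Of the 20 other acute-phase genes examined, Lcn2 among them, 2 had an NF-kB peak within 10 kb in KO with LPS, 1 in untreated KO, 1 in WT with LPS and none in untreated WT. The second gene in KO with LPS was Ptx3, which encodes the long pentraxin 3 made by macrophages. Ptx3 had an NF-kB peak 6461 bp from its span in KO with LPS and 6617 bp from it in WT with LPS, and an IRF3 peak at the same place in KO with LPS. The complement gene C3 had one in untreated KO alone, at rank 2546 of 3065. Orm1, Hp, Crp, the fibrinogen genes and the remaining members had none. Over all genes the NF-kB shares within 10 kb were 3.97% in KO with LPS, 4.95% in untreated KO, 4.10% in WT with LPS and 2.45% in untreated WT. The IRF3 shares were 2.87% in KO with LPS, 2.65% in untreated KO, 2.20% in WT with LPS and 1.67% in untreated WT.

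Among 12 genes of iron withholding and handling, Lcn2 and Fth1, the ferritin heavy chain gene, had an NF-kB peak within 10 kb in KO with LPS, and Fth1 had one in WT with LPS. Fth1 thus appeared in both genotypes, with its best peak at rank 28 in KO and 119 in WT. Of 9 receptor genes for serum amyloid A or lipocalin 2, Fpr2, Fpr1 and Tlr2 had an NF-kB peak within 10 kb in KO with LPS. Fpr2 and Fpr1 shared the same nearest peak, at rank 377, which was in no other list. Fpr2, a formyl peptide receptor that binds serum amyloid A, also had a better-ranked NF-kB peak within 10 kb in KO with LPS. That better-ranked peak was listed in WT with LPS too. The only NF-kB peak of WT with LPS within 10 kb of Fpr2 lay 6903 bp from the gene, away from the rank 377 peak. Tlr2 had none in WT with LPS but was listed in both untreated groups. Over all genes the NF-kB shares within 10 kb were 3.97% in KO with LPS, 4.95% in untreated KO, 4.10% in WT with LPS and 2.45% in untreated WT.

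Among inducers and regulators of the acute-phase response, an NF-kB peak lay within 10 kb of 5 of 17 genes in KO with LPS (29.4%, against 3.97% of all genes), 1 of 17 in untreated KO, 1 of 17 in WT with LPS and none in untreated WT. The 5 were Il1b, Nfkbia, which encodes IkBa, Bcl3, Socs3, a feedback inhibitor of cytokine receptor signalling, and Nfkbiz, whose product is a nuclear cofactor of NF-kB required in mouse macrophages for induction of Lcn2. The Nfkbiz peak was 325 bp wide, lay inside the gene and ranked 965 with a q-value of 0.420. The nearest Socs3 peak was 254 bp wide, 3627 bp from the gene, and ranked 271 with a q-value of 0.0680. The Bcl3 peak ranked 767 with a q-value of 0.305. The Nfkbia peak ranked only 2153 of 2376, with a q-value of 0.912. The nearest Il1b peak ranked 2089 with the same q-value, and the best Il1b peak within 10 kb ranked 752. Bcl3 was the gene found in WT with LPS. No gene of this group had an IRF3 peak within 10 kb in any of the 4 IRF3 lists. Over all genes the IRF3 shares within 10 kb were 2.87% in KO with LPS and 2.65% in untreated KO. They were 2.20% in WT with LPS and 1.67% in untreated WT. With shares this low, nothing is read from an absence in 17 genes. The counts given for this group come from lists chosen with results of these data known, and no test was made on them.

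Peak lists hold no expression level, so cell identity could not be checked from them. Of 8 macrophage marker genes, 3 had an NF-kB peak within 10 kb in KO with LPS (Adgre1, Lyz1 and Fcgr1), 2 in untreated KO, 1 in WT with LPS and 1 in untreated WT. Over all genes the shares were 3.97%, 4.95%, 4.10% and 2.45% in the same order. Fcgr1 had its peak in every NF-kB list and in the IRF3 lists of KO with LPS, WT with LPS and untreated WT. The Lyz1 peak lay 9046 bp from the gene and ranked 1264, with a q-value of 0.593. None of 9 neutrophil markers and none of 5 hepatocyte markers had a peak within 10 kb in any of the 8 lists. Within 50 kb, the neutrophil marker Ngp had a peak in every NF-kB list and Camp in every one but KO with LPS. Only 1.67 to 4.95% of all genes had a peak within 10 kb, depending on the list. That share does not apply to the counts within 50 kb, for which none was taken. Within 100 kb the NF-kB shares were 9.62 to 18.4% of all genes. With gene groups this small, nothing about cell types is read from these counts. Neutrophils and hepatocytes are the other well-known sources of Lcn2 and of the Saa proteins, and whether such cells were present in these samples was not tested.

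**Figure D5:**
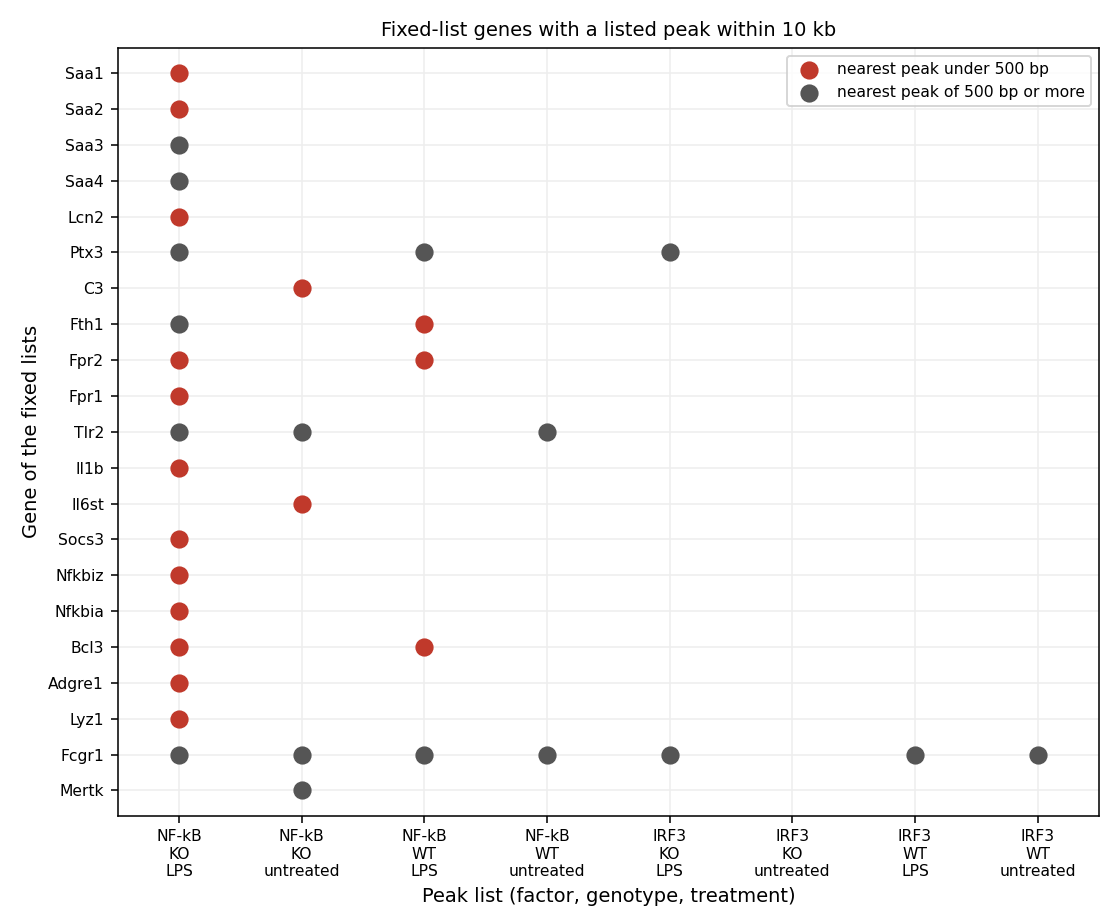
Genes of the 8 fixed lists that had a listed peak within 10 kb, with peak lists along the horizontal axis. A dot marks a peak, red where the peak nearest to the gene was under 500 bp wide and dark grey otherwise. Saa1 to Saa4 and Lcn2 have dots only under NF-kB in KO with LPS, as do Fpr1, Il1b, Socs3, Nfkbiz, Nfkbia, Adgre1 and Lyz1, whereas Ptx3, Fth1, Fpr2 and Bcl3 also have one under WT with LPS.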

How the data were processed

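The data were 8 peak lists from chromatin immunoprecipitation sequencing with IRF3 or NF-kB antibodies. Per the labels, all replicates of a group point to the same list, so the authors merged 2 or 3 samples into each (22 samples of 44 in the series). Per the submitters' processing notes, the build is mm10 and the tools named are, among others, MACS2 2.1.1 and HOMER 4.9, with no role given. The sources used here describe no aligner, calling settings, merging method or cutoff for a peak, and read depth is unknown. Each list is labelled chipr, a term left unexplained there, so what the p-values measure is unknown too. The deposited lists give each peak a signal value, treated as a score of unknown normalization, a p-value and a q-value, all by the authors and used only inside a list. The largest q-value in a list was 0.893 to 0.912, so deposited peaks were not selected at a q-value of 0.05.

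Gene spans came from the RefSeq table of GRCm38.p6 (mm10), chromosomes 1 to 19, X and Y, and start sites from the RefSeq promoter table (32817 distinct sites). Distances run from the gene span unless a start site is named. Peaks counted as shared at 1 bp of overlap. Promoter identity came from global alignment, and intervals are exact Clopper-Pearson. Python 3.11.15, pandas 2.3.3 and SciPy 1.17.1 were used, and the distance and overlap steps were tested on simulated data.

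The 3 genes and the 8 gene lists (79 symbols, all matched) were chosen with earlier results of these data known. Named genes are the 3 members, genes within 100 kb of their peaks, and fixed-list genes that had a peak within 10 kb. Also named are Tnfaip3 and Sod2 and, after their values were seen, genes at start-site peaks under 500 bp. Genes within 5 ranks of a member's peak were sought too and gave only neighbours sharing that peak. Alternatives were stricter q-value and p-value limits, equal list length, peaks under 500 bp, other distances, gene ends, other overlap rules and ranking by signal value. Data from bisulfite sequencing, ATAC-seq and inputs are not analysed here. Nothing in the labels ties replicates to separate animals or cultures.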

Additional observations from a re-analysis of the deposited data

How the results depend on the processing

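With a q-value under 0.05 required, 1 of the 3 genes (Saa1) had an NF-kB peak within 10 kb in KO with LPS, in place of 3. The count was 2 within 1 kb of the gene span (Saa3 and Lcn2) and 2 with peaks under 500 bp (Saa1 and Lcn2). By start site, the Saa3 peak lay 3852 to 4378 bp upstream, farther than the Saa1 peak at 2865 to 3022 bp. It was 3 within 5, 50 or 100 kb, from gene ends, at a p-value under 0.05 and at an equal list length of 1462 peaks. In the other 7 lists the count was 0 under every one of these settings, and no peak lay within 200 kb. No other list held the 3 positions at 1 bp of overlap, at 50% of both peaks or within 500 bp. Of the 35 acute-phase and iron genes, 7 had an NF-kB peak within 10 kb in KO with LPS (Saa1 to Saa4, Lcn2, Ptx3 and Fth1). The Saa genes and Lcn2 count here through the 3 peaks for which the genes were chosen, so nothing is read from the 7. Over all genes the NF-kB shares were 3.97% in KO with LPS, 4.95% in untreated KO and 4.10% in WT with LPS, and 2.87% for IRF3 in KO with LPS. These shares are for 10 kb without a q-value limit. None was taken at 1 kb, at 50 kb or at a q-value under 0.05, so nothing is read from the counts at those settings. The count of 7 became 2 within 1 kb, 7 within 50 kb and 3 at a q-value under 0.05 (Saa1, Saa2 and Fth1). In untreated KO the count was 1, against 0 within 1 kb, 2 within 50 kb and 0 at a q-value under 0.05. In WT with LPS it was 2 (Ptx3 and Fth1), against 0 within 1 kb, 3 within 50 kb (Crp, Ptx3 and Fth1) and 1 at a q-value under 0.05. For IRF3 in KO with LPS it was 1, against 0 within 1 kb and 0 at a q-value under 0.05.

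Replicates could not be left out, since each list is already merged. No paired analysis was possible because the merged lists carry no replicate numbers. Without read depth, the absence of a peak from a list does not show absence of binding.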

Other observations

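The names of the deposited peaks hold a number that rises with position on every chromosome in all 8 lists, with gaps. If the gaps count candidate regions that were not kept, 2 such regions lay between the Saa3 and Saa1 peaks in the NF-kB list of KO with LPS. The sources used here do not say what the numbers count. Saa1 and Saa2 point away from each other, and no list held a peak within 500 bp of the position before Saa2 that mirrors the Saa1 peak.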
